A study of Homo sapiens with 9 samples.

Results

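NKX2-1 occupancy was compared between the lung adenocarcinoma cell lines NCI-H3122 and NCI-H1819 (H3122 and H1819 below). The members are the NKX2-1 peaks of 3 deposited lists: 7469 peaks in H3122 replicate 1, 48071 in H3122 replicate 2 and 13486 in H1819, or 69026 of the 125904 peaks of the series. A peak was counted as shared where it overlapped a peak of the other list by at least 1 bp, and as line-specific otherwise. The study profiled NKX2-1 by chromatin immunoprecipitation and sequencing in 3 lung adenocarcinoma lines, all with NKX2-1 amplified according to the series design. NKX2-1 was precipitated with the same Bethyl Laboratories antibody in each line, and FOXA1 with an Abcam antibody in H3122 alone. Cells were grown in RPMI1640 with serum and crosslinked with formaldehyde, and the labels name no treatment. The lines are established tumour lines without a normal lung control, and the 4 input libraries were not analysed here.

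The homeodomain protein NKX2-1 (TTF-1) is a transcription factor that lung epithelium needs to form and to keep its identity. It activates surfactant and secretory genes in alveolar and airway cells, and it is retained in most lung adenocarcinomas, where it can act as a lineage oncogene when amplified. FOXA1 is a forkhead pioneer factor that opens chromatin and binds many of the same lung enhancers. A peak marks DNA that was enriched after precipitation and does not by itself show that a nearby gene is regulated.

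H3122 had 2 lists and H1819 had 1, so a difference between the lines cannot be told apart from a difference between libraries, and no test over samples was possible. Nothing in the labels says that the H3122 lists came from separate cultures. All peaks but 10 of replicate 2 and 3 of H1819 lay on placed chromosomes and entered the comparisons, which left 48061 and 13483. The score of a peak is the authors' own value and ranks peaks within a list only. MACS usually writes a multiple of the negative log10 of p in this column, but its scale is not given in the labels. Scores began at 50 in H3122 replicate 1 and 60 in the other lists, and median scores were 73.3, 137 and 124 in replicate 1, replicate 2 and H1819. The depth of the libraries is unknown, and the peaks covered 0.083%, 1.12% and 0.228% of the genome in the same order. Shares carry Wilson 95% intervals for counting error alone, as peaks are not replicate samples.

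More than 1 in 2 H1819 peaks had a counterpart in H3122, but nearly all of that sharing came through 1 of the H3122 lists. Of the H1819 peaks, 53.4% (95% interval 52.5% to 54.2%, 7197 peaks) were found in H3122 replicate 2. In H3122 replicate 1 the share was 13.9% (13.3% to 14.5%, 1874 peaks). Either list held 53.6% of the H1819 peaks, so replicate 1 added only 29 peaks to those found in replicate 2. Seen from H3122, 14.7% of replicate 2 peaks (7062) and 25.4% of replicate 1 peaks (1899) were found in H1819. For scale, 81.7% of replicate 1 peaks were found in replicate 2 of the same line. With every list restricted to its 7469 highest-scoring peaks, 24.98% of H1819 peaks were found in replicate 2 and 17.5% in replicate 1. The gap between the H3122 replicates was therefore narrower at equal list length, and the share in replicate 2 was lower.

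Sites called in both H3122 lists were found in H1819 more often than sites called in 1 of them. Of replicate 2 peaks that replicate 1 also held, 31.4% (30.3% to 32.6%) were found in H1819, against 12.3% (12.0% to 12.6%) of those it did not hold. Replicate 1 peaks behaved in the same direction, with 30.6% in H1819 when replicate 2 also held them. Of the 1366 replicate 1 peaks that were missing from replicate 2, only 29 (2.12%) were found in H1819. The sites that replicate 1 alone called were almost absent from the H1819 list. Once overlapping peaks were merged into regions, median replicate 2 scores were higher where replicate 1 also held the region. They were 603 with H1819 and 396 without it, against 197 and 117 where replicate 1 did not. The part of score in these differences was not tested.

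Sharing rose with peak score in both lines. In H1819, 46.0% of the lowest score decile and 63.3% of the highest were found in H3122 replicate 2. The share found in replicate 1 went from 9.27% to 27.7% over the same deciles. In the other direction, 5.41% of the lowest and 34.8% of the highest decile of replicate 2 peaks were found in H1819. Replicate 1 peaks went from 19.1% to 43.1%, with the lowest share, 15.9%, in the fourth decile. A high score was not enough for sharing. Among merged regions, 495 of the 1348 in the top score decile of H1819 (36.7%) had no peak in either H3122 list. Of the 4804 regions in the top decile of replicate 2, 3131 (65.2%) had no H1819 peak, and 431 regions were in the top decile of both. Over the 7012 regions held by H1819 and replicate 2, Spearman's rho between their scores was 0.32. It was 0.26 over the 1908 regions of H1819 and replicate 1 and 0.43 over the 5983 regions of both H3122 lists. These correlations run across regions, which are not independent replicates.

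**Figure D1:**
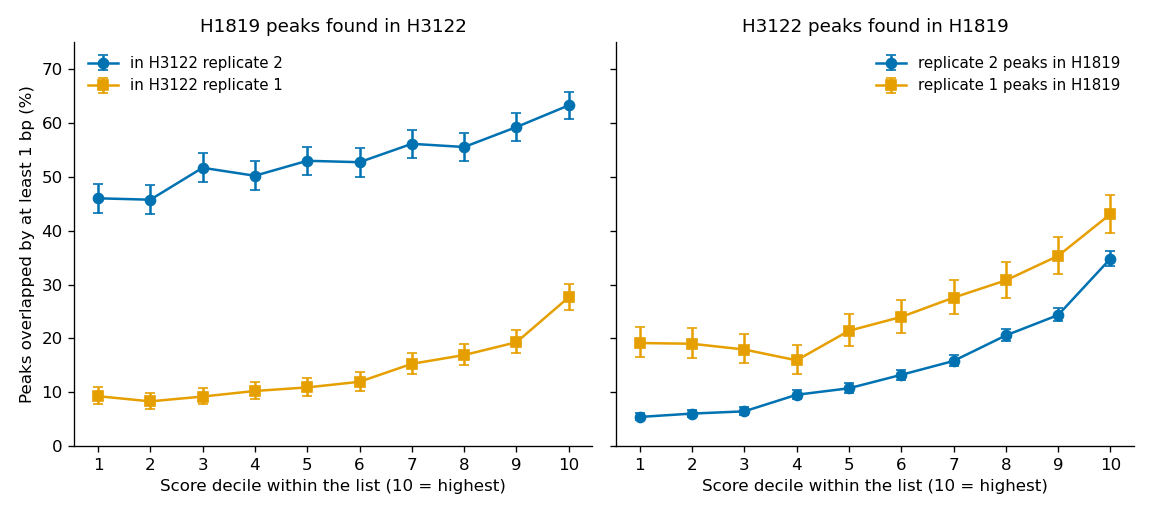
Percentage of peaks overlapped by at least 1 bp in the other line (y axis) by score decile within the list (x axis, 10 is highest). H1819 peaks are on the left and H3122 peaks on the right, and bars are Wilson 95% intervals. Sharing was highest in the top decile in all 4 curves, at 63.3% and 27.7% for H1819 peaks and at 34.8% and 43.1% for H3122 replicate 2 and replicate 1 peaks.

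Where the lines shared a site, their peaks were centred close together. The median distance between midpoints was 73 bp for the 7247 overlapping pairs of H1819 and replicate 2 peaks, and 62.1% of pairs lay within 100 bp. It was 60 bp for H1819 and replicate 1, and 78 bp for the 2 lists of H3122. An H1819 peak lay wholly inside a replicate 2 peak in 65.3% of the pairs, and 181 replicate 2 peaks held several H1819 peaks. The 6257 H1819 peaks in neither H3122 list were mostly not near misses. Their median distance to the nearest H3122 peak was 16.2 kb, with 8.66% within 1 kb and 38.5% within 10 kb.

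Shared peaks were wider than line-specific peaks, and in H1819 the difference was smaller within score deciles. H1819 peaks had a median width of 495 bp when shared with replicate 2 and 459 bp when not, a difference of 36 bp. Within score deciles the difference ran from -11 to 17.5 bp, and shared peaks were wider in 7 of 10. When sharing was taken from replicate 1 instead, the difference over all H1819 peaks was 85 bp. Within score deciles it then ran from -12 to 34 bp, and shared peaks were wider in 8 of 10. H3122 replicate 2 peaks measured 782 bp when shared with H1819 and 637 bp when not, and were wider in 10 of 10 score deciles, by 30 to 79 bp. Replicate 1 peaks measured 359 bp and 302 bp, again with the shared peaks wider in 10 of 10 deciles. Wide peaks are also easier to hit at 1 bp, and the part of width in the sharing was not tested beyond these values.

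Merging overlapping peaks of the 3 lists gave 55632 regions, and these differed in how often they carried FOXA1 in H3122 or NKX2-1 in H2087, the third lung adenocarcinoma line of the series. All 3 lists held 1879 regions, of which 61.9% had a FOXA1 peak and 51.0% an H2087 peak. Replicate 2 and H1819 alone held 5133, with 45.8% and 35.0%. Both H3122 lists without H1819 held 4104, with 62.6% and 29.1%. Replicate 2 alone held 36893 regions, with FOXA1 in 45.7% and H2087 in 15.3%. H1819 alone held 6257 regions, with FOXA1 in 6.17% (5.60% to 6.79%) and H2087 in 4.55% (4.07% to 5.10%). The 1337 regions of replicate 1 alone were similarly bare, at 4.86% and 3.96%. A further 29 regions joined replicate 1 and H1819 without replicate 2.

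**Figure D2:**
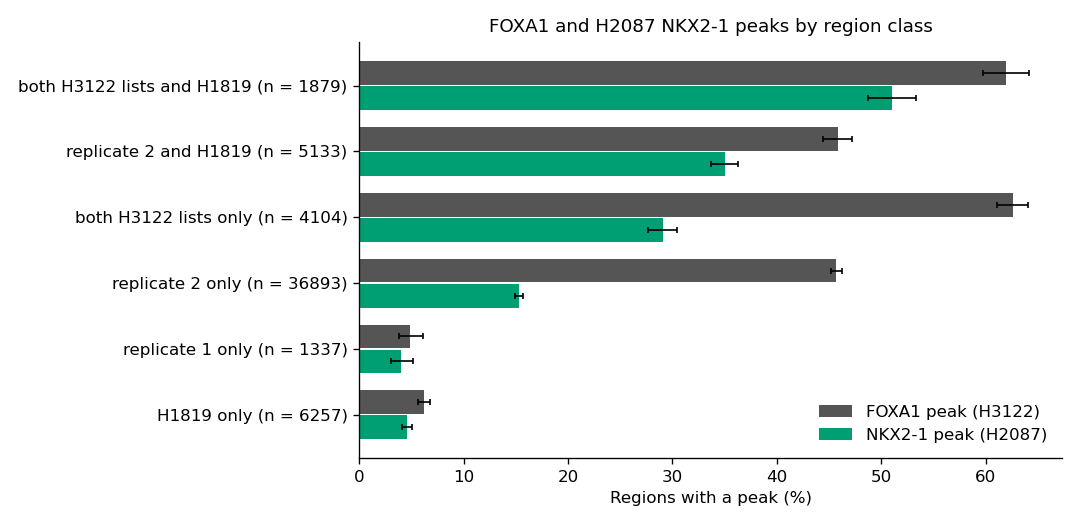
Percentage of merged NKX2-1 regions with a FOXA1 peak in H3122 (grey) or an NKX2-1 peak in H2087 (green), by the lists that held the region, with Wilson 95% intervals. The class of replicate 1 and H1819 without replicate 2, with 29 regions, is not drawn. Regions of H1819 alone (6.17% and 4.55%) and of replicate 1 alone (4.86% and 3.96%) had the lowest shares drawn.

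The low FOXA1 share of the H1819-only regions held at every score. Split into tertiles by H1819 score, H1819-only regions had FOXA1 in 6.35%, 6.10% and 6.01% from lowest to highest, and H2087 in 5.37%, 3.81% and 4.35%. H1819 regions with an H3122 peak had FOXA1 in 39.99%, 45.1% and 62.3%, and H2087 in 39.4%, 44.8% and 34.4%. A merged region is wider where several peaks are joined, so more of it can be hit. Counting only FOXA1 peaks that held the midpoint of the H1819 peak, the shares were 5.53% for H1819 peaks in neither H3122 list and 46.1% for those in either. FOXA1 was profiled in H3122 only, so these values say where H3122 carries FOXA1 and nothing about FOXA1 in H1819.

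Among regions of H3122 replicate 2, those shared with H1819 carried H2087 peaks more often and FOXA1 peaks less often than those not shared, within tertiles of score. Without that split the FOXA1 shares were nearly level. They were 61.9% shared against 62.6% not shared where replicate 1 also held the region, and 45.8% against 45.7% where it did not. Scores still vary within a tertile, and their part in these differences was not tested. In the lowest, middle and highest tertile of replicate 2 score, FOXA1 was found in 25.6%, 34.7% and 63.4% of the regions shared with H1819. The regions not shared had FOXA1 in 30.6%, 45.3% and 71.1%. H2087 showed the opposite order in each tertile, with 20.96%, 34.8% and 45.8% of shared regions and 9.89%, 16.6% and 25.4% of the others. The shared regions were wider in each tertile, at 653 against 531 bp in the lowest and 913 against 790 bp in the highest, and part of that comes from joining the H1819 peak to them.

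The strongest regions of each class were named by rank of score within the lists, in hg18 coordinates. At the head of the regions in all 3 lists stood 3q13.12, at chr3:109484201-109485227, with scores of 1246, 3100 and 3201 in replicate 1, replicate 2 and H1819. Next came 1q25.3 (chr1:179353042-179353953, scores 743, 3100 and 3100) and 11p13 (chr11:31789751-31790797, scores 1060, 3100 and 2395). Scores piled up at 3100, so peaks at that score have no order among them. The others named in this class lay in 15q26.1, 9q22.32, 5q31.3, 8p11.21, 4p15.2, 17q25.1 and 8q23.2. All 10 had a FOXA1 peak, against 61.9% of the class, and FOXA1 was more frequent at high scores. Each of the 10 had a score of 3100 in replicate 2, which selection by score favours.

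The highest-scoring H1819 regions without an H3122 peak lay in 1p21.2 (chr1:101220657-101221638), 1q41 (chr1:221281200-221282162) and 7q31.1 (chr7:111789048-111790759), each with a score of 3100. The next were 6q15 (chr6:90368278-90369340, 2686) and 7q21.11 (chr7:80340869-80341773, 2623). None of the 5 had a FOXA1 or an H2087 peak, which 6.17% and 4.55% of all H1819-only regions had. The 5 leading regions of both H3122 lists without H1819 lay in 13q32.1, 2q35, 18q22.3, 12q14.3 and 7q34. Their scores ran from 531 to 820 in replicate 1 and from 3100 to 3174 in replicate 2. All 5 had an H2087 peak, against 29.1% of their class, and all but 2q35 had a FOXA1 peak, against 62.6%.

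Some shared sites were ranked near the top of one line and near the bottom of the other. In 5q35.1 (chr5:167654434-167655235) the score was 1266 in H1819 and 60.6 in replicate 2. In 13q31.1 the scores were 1986 and 63.1, and in 1p31.1 766 and 61.6. None of these 3 regions was in replicate 1 or had a FOXA1 or H2087 peak. Of all regions in replicate 2 and H1819 alone, 45.8% had FOXA1 and 35.0% H2087. In the other direction, 4q25 (chr4:110529049-110530201) scored 2350 in replicate 2, 210 in replicate 1 and 60.1 in H1819. The regions in 4q13.3 (1175, 93.2 and 60.5) and 1q42.2 (1672, 93.2 and 61.9) followed. All 3 had a FOXA1 peak, against 61.9% of the regions in all 3 lists.

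H1819 peaks were more clustered than those of H3122 once the lists were made equally long. Peaks under 10 kb apart were joined into clusters, and 14.6% of H1819 peaks, 29.8% of replicate 2 peaks and 3.24% of replicate 1 peaks fell into clusters of 3 or more. A longer list has closer peaks, so the lists were also cut to their 7469 highest-scoring peaks. The shares were then 8.56% (7.94% to 9.21%) in H1819, 3.63% (3.23% to 4.08%) in replicate 2 and 3.24% (2.86% to 3.67%) in replicate 1. H2087 NKX2-1 stood at 10.4% and H3122 FOXA1 at 2.24% by the same measure. Joining peaks under 1 kb apart first, so that a broad site called as several peaks counts once, left 5.61%, 2.71% and 2.02% in H1819, replicate 2 and replicate 1.

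Clustered H1819 peaks were shared less often than single ones. In replicate 2, 55.0% of single H1819 peaks had a counterpart, 52.5% of peaks in pairs, 47.9% of peaks in clusters of 3 to 4 and 46.7% of peaks in clusters of 5 or more. In replicate 1 the shares were 15.3%, 12.13%, 11.4% and 9.11%. The median score was 119 for single peaks and 138 in clusters of 5 or more, and the part of score in this difference was not tested. Replicate 2 peaks showed no such fall, with 14.6% of single peaks and 16.4% of peaks in clusters of 5 or more found in H1819.

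**Figure D3:**
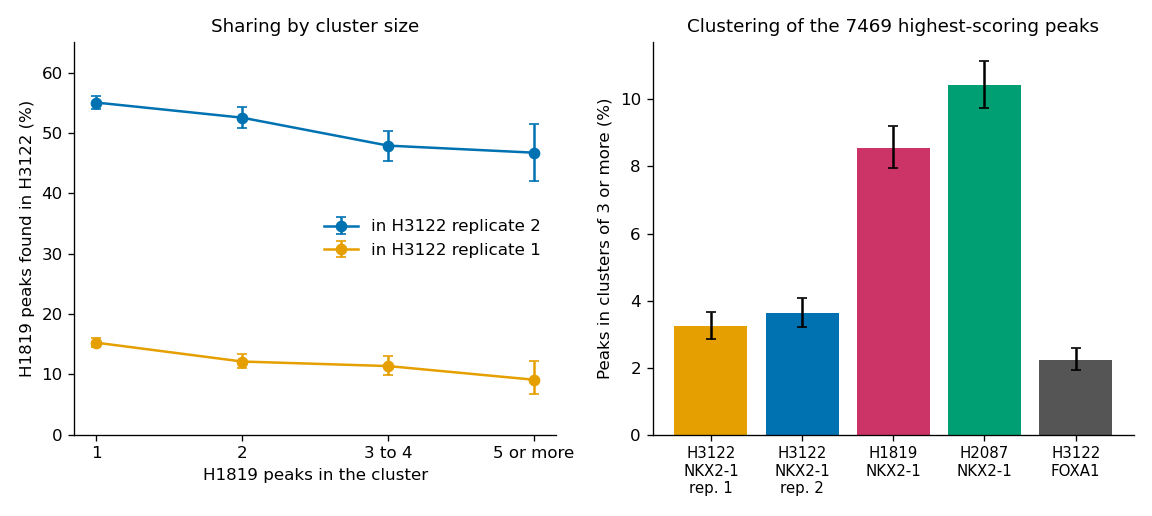
Left, percentage of H1819 peaks found in each H3122 list (y axis) by the number of H1819 peaks in their cluster (x axis). Right, percentage of peaks in clusters of 3 or more among the 7469 highest-scoring peaks of each list, with Wilson 95% intervals in both panels. Sharing with replicate 2 went from 55.0% for single peaks to 46.7% in clusters of 5 or more, and at equal length H1819 (8.56%) lay above both H3122 lists.

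The largest clusters showed both kinds of site. The largest of replicate 2 held 30 peaks over 102 kb in 6p22.3, where H1819 had 9 peaks, replicate 1 had 2 and FOXA1 had 27. Those 9 H1819 peaks formed 1 of the 5 largest H1819 clusters, and 7 of them were shared. The next replicate 2 clusters were poor in H1819 peaks, with 1 against 19 in 7q32.3, 2 against 18 in 2p14, 0 against 18 in 15q15.1 and 1 against 17 in 2q11.2. Replicate 1 had 3, 0, 4 and 3 peaks in the same clusters. The largest H1819 clusters held 11 peaks each, in 1p36.22, where 6 were shared, and in 10q11.22, where 3 were shared. A cluster of 10 in 11q12.1 shared 7 peaks and a cluster of 9 in 20q13.13 shared 3.

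Sharing differed by chromosome, with chromosome 19 highest and chromosome X lowest. Of the 475 H1819 peaks on chromosome 19, 63.6% (59.2% to 67.8%) were found in replicate 2, against 39.2% (33.4% to 45.3%) of the 255 on chromosome X. The interval lay above the share of all H1819 peaks for chromosomes 14 and 19 and below it for X, out of 23 chromosomes. Judged by replicate 1, chromosome 16 was highest (18.0%) and X lowest (6.27%), while chromosome 19 stood at 16.4%. For H1819 peaks, the low share on chromosome X therefore appeared against both H3122 lists, and the top chromosome depended on the list. The share of replicate 2 peaks with an H1819 counterpart was 22.9% on chromosome 19 and 9.38% on X, the highest and lowest values. Replicate 1 peaks were also found in H1819 most often on chromosome 19 (32.9%), but least often on chromosome 20 (16.5%), with X at 18.2% and its interval spanning the share over all chromosomes. Chromosome 19 also held 1.34 times as large a part of the H1819 list as of the replicate 2 list, and chromosome 13 held 0.80 times. Against the replicate 1 list, chromosome 19 held 1.10 times, and the extremes were 0.712 on chromosome 16 and 1.61 on X. The H3122 lists differed from each other by more, from 0.548 on X to 1.63 on chromosome 22 for replicate 1 against replicate 2. Copy number, which differs between tumour lines, is not measured by the lists and its part was not tested.

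**Figure D4:**
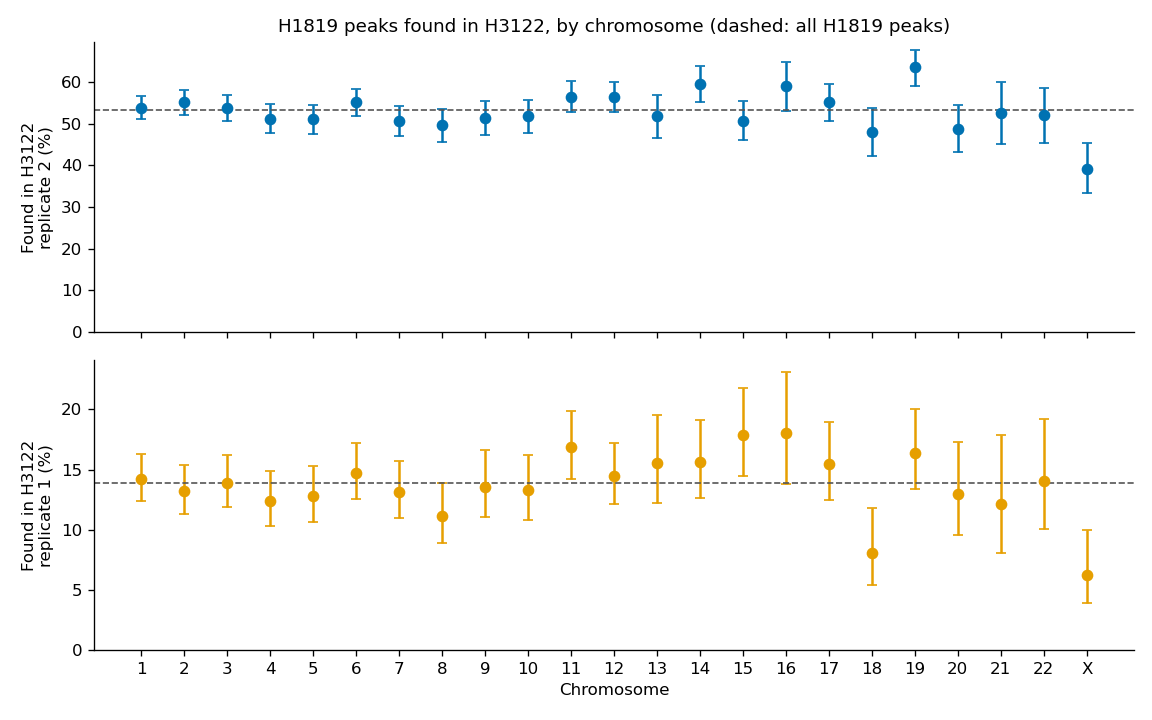
Percentage of H1819 peaks found in H3122 replicate 2 (top) and replicate 1 (bottom) on each chromosome (x axis), with Wilson 95% intervals and the share of all H1819 peaks as a dashed line. Chromosome X was lowest in both panels, at 39.2% and 6.27%, and chromosome 19 was highest in the top panel at 63.6%.

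Peak density by cytogenetic band showed where the H1819 and replicate 2 lists differed most, which cannot be told apart from a difference between libraries. Density was expressed relative to the mean of each list, and 595 bands held at least 40 peaks of H1819 and replicate 2 together. H1819 was at least 2 times as dense as replicate 2 in 25 bands (4.20%) and at most 0.5 times in 62 (10.4%). It lay above both H3122 lists in 198 bands (33.3%) and below both in 213 (35.8%). Replicate 1 differed from replicate 2 by the same folds in 12 and 57 bands, on fewer peaks. Across bands, Spearman's rho of density was 0.59 for H1819 and replicate 2, 0.52 for H1819 and replicate 1 and 0.67 for both H3122 lists. Neighbouring bands and shared base composition tie these points together.

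The 5 bands with the highest ratios all lay below the list mean in replicate 2. In 11q14.3, H1819 had 27 peaks against 17 in replicate 2, 1 in replicate 1 and 0 in H2087, a relative density 5.66 times that of replicate 2, and 2 of the 27 were shared. In 14q23.2 the counts were 30, 36 and 2 for H1819, replicate 2 and replicate 1, and in 21q21.3 they were 35, 45 and 10. The bands 10q25.3 (39, 56 and 11) and Xp22.2 (32, 46 and 1) followed. At the other end, 7q31.32 held 1 H1819 peak against 47 in replicate 2 and 9 in replicate 1. Xq26.2 held 2 against 70 and 5, 13q12.12 held 2 against 53 and 7, and 16q23.2 held 2 against 48 and 7. In 8q23.3 H1819 had 5 peaks and replicate 2 had 109. H2087 moved in part with H1819: its median density ratio to replicate 2 was 1.33 in the bands where H1819 was at least 2 times as dense, 0.483 where it was at most 0.5 times and 0.917 over all bands. These ratios share replicate 2 as their base, so they are not independent.

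**Figure D5:**
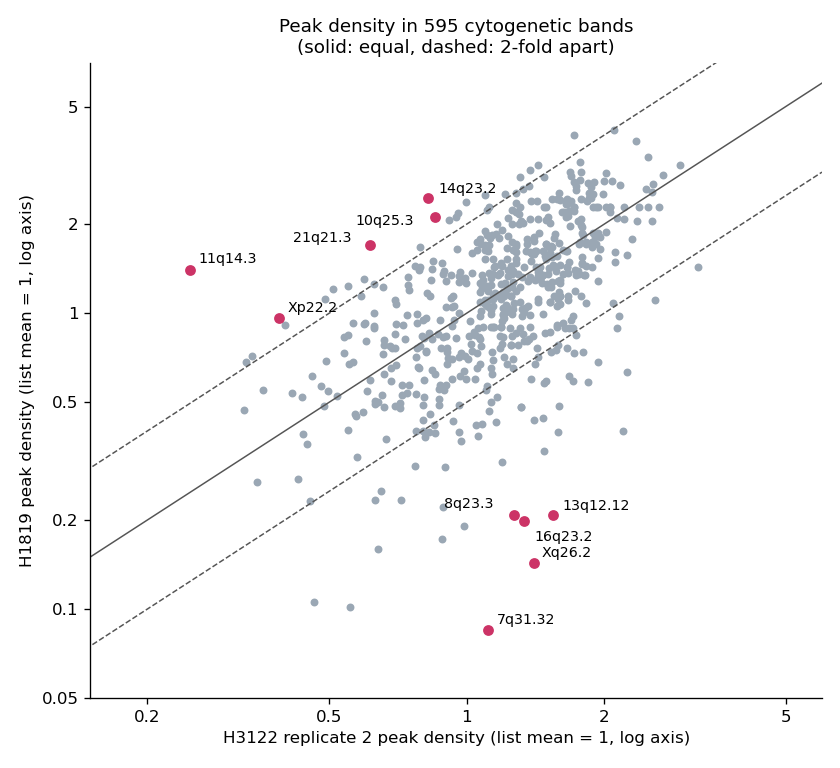
Peak density of H1819 (y axis) against H3122 replicate 2 (x axis) in 595 cytogenetic bands, each relative to the mean of its list and on log axes. The solid line marks equal density and the dashed lines a difference of 2 times. Bands with the 5 highest and 5 lowest ratios are in red, and 11q14.3 lies farthest above the line with 5.66 times the density.

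Long runs of peaks of H1819 or replicate 2 without the other list were drawn from the same peaks as the band ratios, so they are not separate evidence. In 6q23.3, 79 replicate 2 peaks in a row over 2.57 Mb (chr6:135432443-138000498) had no H1819 peak midpoint among them. This was the longest of 10286 runs, each defined by holding none, so its length is no test. The same stretch held 10 replicate 1 peaks, 12 H2087 peaks and 78 FOXA1 peaks. Runs of 73 peaks across 20p13 and 20p12.3, 60 across 1p33 and 1p32.3, and 58 across 13q12.12 and 13q12.13 followed, with 17, 9 and 9 replicate 1 peaks. In all, 22 such runs had 40 peaks or more. Each of these 4 stretches was occupied in both H3122 lists.

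H1819 runs without a replicate 2 peak were shorter, as its list is. The longest had 14 peaks over 1.44 Mb in 21q21.3 (chr21:27137547-28578856), with 0 peaks in replicate 1, H2087 or FOXA1. In 11q14.3, 13 H1819 peaks over 1.14 Mb had 0 replicate 1 and 0 H2087 peaks and 2 FOXA1 peaks. Neighbouring stretches of 1q32.2 held 12 and 10 H1819 peaks, and 6q15 held 11 within 0.178 Mb, among them the H1819-only region named above. A run of 10 in 2p11.2 spanned 0.164 Mb (chr2:85176576-85340477). None of these 6 runs held a replicate 1 peak. The runs were defined by holding no replicate 2 peak, and 81.7% of replicate 1 peaks were found in replicate 2.

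Known NKX2-1 target and lung genes were placed by cytogenetic band only, since no hg18 annotation was used. The band names came from GRCh38 and the peaks were counted in the hg18 bands of the same name. Band limits were not compared between the builds, so a gene near a limit may be placed in the wrong band. The list of 34 genes fell into 33 bands, which are up to 8.7 Mb long, so a band's peaks are not the gene's. H1819 lay above both H3122 lists in 11 of the 33 bands (33.3%, as in all bands) and below both in 16 (48.5%, against 35.8% of all bands). It was at most 0.5 times as dense as replicate 2 in 4 bands (against 10.4% of all bands) and at least 2 times in 0 (against 4.20%). Of the 781 H1819 peaks in these bands, 461 (59.0%) were found in replicate 2, against 53.4% of all H1819 peaks. Each band was placed above, below or between by its densities as computed, with no tolerance.

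Among lineage factors, the NKX2-1 band itself, 14q13.3, was dense in every list, with 10, 50 and 15 peaks in replicate 1, replicate 2 and H1819, or 3.17, 2.47 and 2.64 times the list mean. Of its 15 H1819 peaks, 9 were found in replicate 2. H2087 NKX2-1 and H3122 FOXA1 stood at 1.81 and 2.40 times their list means in this band. The series design gives NKX2-1 as amplified in all 3 lines, and the part of copy number in this density was not tested. The neighbouring band 14q21.1, which holds FOXA1, had 6, 51 and 15 peaks, with 11 of 15 shared. FOXA2, a related forkhead factor of endoderm, lies in 20p11.21, where H1819 had 10 peaks against 75 in replicate 2 and 16 in replicate 1 (0.475 times the replicate 2 density). The band of SOX2, a stem cell factor of airway and squamous cells, had 15 against 95 and 11. The bands of GATA6, HOPX, LMO3 and FOXQ1 lay between 0.844 and 0.990 times. Of the 8 lineage bands, 6 were below both H3122 lists (35.8% of all bands were), 1 above both (33.3% of all bands) and 1 between. The 6 include the GATA6 band, which was nearly level at 0.990 times replicate 2 and 0.978 times replicate 1.

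The 6 surfactant and lamellar body genes lay in 5 bands, of which 3 were below both H3122 lists, 1 above both and 1 between, where 35.8% of all bands were below both. ABCA3, the lipid transporter of lamellar bodies, lies in 16p13.3, where H1819 had 16 peaks against 145 in replicate 2 and 45 in replicate 1, the lowest ratio of the list at 0.393. NAPSA, the napsin A protease that processes surfactant protein B, lies in 19q13.33 with 13, 94 and 21 (0.493 times). SFTPA1 and SFTPD share 10q22.3 with 19, 86 and 20. SFTPC, in 8p21.3, had 20, 82 and 6 and lay between the H3122 lists. In the SFTPB band, 2p11.2, H1819 had 26 peaks against 75 and 12 and lay above both, and 13 of the 26 were shared. This is the band that also held the run of 10 unshared H1819 peaks.

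Secretory and receptor bands were mixed. Of all bands, 33.3% were above both H3122 lists and 35.8% below both. MUC1, a membrane mucin, lies in 1q22, where H1819 had 25 peaks against 55 in replicate 2 and 8 in replicate 1, or 3.81 times its list mean, and 17 of 25 were shared. SCGB1A1, the club cell secretoglobin, lies in 11q12.3 with 20, 46 and 7, also above both H3122 lists. SCGB3A2, another airway secretoglobin, was placed by name in 5q32, which had 14, 80 and 11 and lay below both. Whether the gene falls in 5q32 or in the next band, 5q33.1, in hg18 was not checked. The band 5q33.1 had 49, 100 and 19 and lay above both, so the direction for this gene is not settled. The bands of the receptor kinases EGFR (17, 38 and 6), MET (28, 88 and 11) and ERBB3 (15, 36 and 8) were above both. The ERBB3 band was nearly level with replicate 1, at 1.04 times its density. That of ROR1, a receptor-like kinase that NKX2-1 is known to induce, was below both with 34, 179 and 25, and that of ERBB2 was between with 18, 88 and 9. In the ERBB3 band 14 of 15 H1819 peaks were shared, and in the EGFR band 5 of 17.

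The 3 bands of feedback inhibitors of receptor signalling were each below both H3122 lists, as were 35.8% of all bands. DUSP6, a phosphatase of ERK, had 18 H1819 peaks against 149 in replicate 2 and 18 in replicate 1 (0.431 times), and the Sprouty genes SPRY2 (27, 164 and 22) and SPRY4 (32, 147 and 27) followed. Of genes of gut and stomach epithelium, HNF4A (28, 98 and 15) lay in a band above both and TFF1 (24, 119 and 20) in a band below both. The HNF4A band was nearly level, at 1.02 times replicate 2 and 1.03 times replicate 1. The band of the epithelial junction gene CLDN18 (12, 34 and 5) was above both, as were 33.3% of all bands. The band of MYBPH, a regulator of myosin assembly, was below both (47, 175 and 36), and that of HMGA2, a chromatin factor of embryonic tissue, was between (14, 62 and 5). The highest ratio of the list was that of 12p13.1, the band of the lung receptor gene GPRC5A, with 40 H1819 peaks against 72 and 11, or 1.98 times the replicate 2 density. SCNN1A, a subunit of the epithelial sodium channel, lay in 12p13.31 with 37, 114 and 18, above both. The bands of AHR (43, 160 and 12) and ZNF608 (40, 203 and 22) lay between.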

How the data were processed

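Peak lists of 3 NKX2-1 libraries were compared, with the H2087 NKX2-1 and H3122 FOXA1 lists as further readouts. The submitters' processing notes name Bowtie, MACS 1.4.0 and the build hg18. The deposited score of each peak is the authors' value, and each list belongs to 1 library per the labels. The sources used here do not give calling thresholds or the input behind each list. The name of the replicate 1 list lacks a tag that the names of the replicate 2 and H1819 lists carry. Whether replicate 1 was called under other settings is not stated. Overlaps, merged regions, clusters and Wilson 95% intervals were computed in Python 3.11.15 with pandas 2.3.3, and overlaps were first tested on simulated peaks. Bands of hg18 came from circlize 0.4.16, a peak belonging to the band of its midpoint. Genes were tied to bands by name through the RefSeq table of GRCh38, and no coordinates were converted. Named regions, bands and clusters were the extremes by rank: the 10, 5 or 3 highest of each class. The members and lists were chosen with earlier results of these data known, and runs, score tertiles and gene density were described after values were seen. No peak sequence is printed.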

Additional observations from a re-analysis of the deposited data

Results flagged for a closer look

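H3122 replicate 2 held 10 NKX2-1 peaks on sequence without a chromosome position, which no comparison used. The number exceeds 3, the upper limit for a list with 0 observed. It is 0.0208% of the list, and the 3 such peaks of H1819 are 0.0222% of that list. Replicate 1 held 0, H2087 held 4 and H3122 FOXA1 held 8.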

How the results depend on the processing

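Of 55 alternatives over 16 results, 43 moved the value. Only the width difference could be scored as reversed, and 0 of its alternatives were. A change in the order of lists was not scored. At equal length, replicate 2 peaks were found in H1819 more often than replicate 1 peaks (24.6% and 17.8%). In the full lists they were found less often (14.7% and 25.4%). A share counted as moved outside its Wilson 95% interval, which is narrow here, and a region count or width difference only beyond 1.5 times. Of the 12 others, 1 could not move, since replicate 1 sets the equal length. With scores of at least 100, the share of H1819 peaks in H3122 replicate 2 was 50.0% and in replicate 1 6.93%, and the share of replicate 2 and of replicate 1 peaks in H1819 was 12.9% and 32.1%. With overlap of 50% of both peaks these 4 shares were 35.6%, 9.59%, 9.98% and 17.3%, with a gap of up to 500 bp 55.5%, 14.8%, 15.7% and 26.5%, and with lists of equal length 24.98%, 17.5%, 24.6% and 17.8%. Regions in all 3 lists numbered 578 at scores of at least 100, 797 with 50% overlap and 1034 at equal length. Regions of both H3122 lists without H1819 numbered 1143, 1235 and 2325, and H1819-only regions 4149 at scores of at least 100. Leaving out 1 H3122 replicate gave 1868 to 7012, 5570 to 40999 and 6286 to 11609 regions in these classes. The width difference was 85 bp by replicate 1. With gaps of 5 and 20 kb, clusters of 3 or more held 8.11% and 23.8% of H1819, 17.2% and 47.4% of replicate 2 and 1.78% and 6.79% of replicate 1 peaks. At equal length they held 8.56% of H1819 and 3.63% of replicate 2 peaks, the opposite order to the full lists (14.6% and 29.8%). Joining peaks under 1 kb apart, an alternative chosen after seeing the data, gave 9.10%, 21.1% and 2.02%. By replicate 1 the top chromosome was 16 with 18.0%. By midpoint, also chosen after seeing the data, FOXA1 was at 46.1% of shared and 5.53% of H1819-only peaks, and H2087 at 37.2% and 4.03%. In each case the alternative's own construction changes which peaks or overlaps count; no further cause was tested. No paired analysis was possible because the lines share fewer than 2 replicate numbers. With 1 H1819 list and unknown depth, no list length or sharing level can be ascribed to the cell line.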

Other observations

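Sharing followed the gene content of the bands. With bands split by protein-coding genes per Mb into a poor, a middle and a rich class of equal total length, 47.7% (45.8% to 49.6%) of H1819 peaks in the poor class were found in H3122 replicate 2. The share was 52.2% in the middle class and 56.6% (55.4% to 57.8%) in the rich class. For replicate 2 peaks with an H1819 counterpart the shares were 11.6%, 13.6% and 17.3%. The Giemsa stain gave the same order, from 55.3% of H1819 peaks shared in unstained bands to 47.0% in the darkest. H1819 peaks were denser in the rich class than replicate 2 peaks, at 1.39 against 1.25 times the list mean, and replicate 1 peaks stood at 1.49.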
